A study of Arabidopsis thaliana with 10 samples.

Results

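The genes described here are the 3 protochlorophyllide oxidoreductases (POR) of Arabidopsis and 7 genes of the steps of chlorophyll synthesis around them: PORA, PORB, PORC, HEMA1, FLU, GUN5 (also called CHLH), CHLI1, GUN4, CHL27 and CAO. They were chosen by locus, as 10 of the 18411 genes listed in either of 2 expression tables, and all 10 had a row in the table of dark-grown seedlings. PORA was not listed in the table of light-grown seedlings, so 9 of the 10 have values there. The set was drawn up with earlier results of these data known, in which PORA and PORB already stood lower in dark-grown DIG1 seedlings and PORA also in DIG2. Their values at 4 h are therefore given as a description, without a test, while the other 8 genes at 4 h and all 9 listed genes at 10 d were tested.

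Transcripts were measured by RNA-seq of polyA RNA from whole Col-0 seedlings of 3 kinds of line, in 5 groups of 2 libraries. The DIG1 and DIG2 lines stood against a GFP line in seedlings grown in the dark for 3 days and then kept in the dark with 10 µM dexamethasone for another 4 h. The DIG1 line also stood against the GFP line in light-grown seedlings kept for 10 days on plates with 500 nM dexamethasone. The series describes DIG1 and DIG2 as transcription factors that respond to abscisic acid, the hormone of drought and seed dormancy, and dexamethasone is a steroid that induces transgenes built to respond to it. Every library, GFP included, came from treated seedlings, so what a line owed to induction and what it showed beforehand cannot be told apart. The promoter of the transgenes and the number of independent lines are not given in the sources used here, nor is whether the replicates came from separate cultures. The p-values therefore describe the spread of these libraries alone, and that spread may be technical.

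Recovered read totals, which may be too low, ran from 9922436 to 15742609 per dark-grown library and from 12250010 to 18283509 per light-grown library. AT3G48510, the gene known as DIG1, stood at 1438 RPKM or more in all 4 DIG1 libraries and at 1.90 RPKM or less in the others, where RPKM is a read density scaled by gene length and library depth. AT5G50360, known as DIG2, reached 4879 and 2685 RPKM in its own line and 2.54 RPKM or less in the other dark-grown libraries. The DIG1 titles print another locus, AT3G45810, which was not listed for the dark-grown or the light-grown seedlings and so has no value here.

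Chlorophyll is built in the plastid from glutamate by way of 5-aminolevulinic acid, whose synthesis by glutamyl-tRNA reductase is the committed step, and protoporphyrin IX, where the pathway divides into a magnesium branch and an iron branch. Flowering plants reduce protochlorophyllide only in the light: seedlings kept in the dark store it bound to POR, and exposure to light starts greening. Free protochlorophyllide is phototoxic, so etiolated seedlings hold POR high and restrain the early steps.

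After 4 h of dexamethasone in the dark, PORA and PORB transcripts in the DIG1 and DIG2 lines stood far under those of the GFP line. PORC fell in both lines, as did HEMA1 and GUN5, which act at the entry to the pathway and at the entry to its magnesium branch. GUN4 and CHLI1 passed the test in DIG2 and not in DIG1, and the direct contrast of the lines is given further on. CHL27, CAO and FLU passed in neither line. Both comparisons use the same GFP libraries. Of the 8 tested genes, 3 fell in DIG1, where 8.54% of all 17371 genes were called and 5.54% were called lower. In DIG2, 5 of the 8 fell, where 14.9% of all genes were called and 7.48% were called lower. By limma 0 rose in either line, where 3.01% and 7.37% of all genes were called higher. At an unadjusted p under 0.05, 1 of the 8 was higher in DIG1 (CAO) and 0 in DIG2. Of all 17371 genes, 1673 and 2544 were higher at that threshold. Lower at the same threshold were 4 of the 8 in DIG1 and 6 in DIG2, beside 2158 and 2609 of all genes. Limma voom on recovered reads called 1 higher in DIG1 and 0 in DIG2, beside 993 and 1170 of all genes. The authors' deposited values gave 0 higher in both lines, beside 719 and 1629 of all genes. The summed RPKM of 6 leaf mesophyll markers was 8797 to 14371 in DIG1 and 12549 to 12656 in DIG2, against 16185 to 18715 in GFP, with 3 of the 6 lower in DIG1 and 4 in DIG2 by limma. Most of that sum was LHCB1.3 and RBCS1A, with GFP means of 10362 and 5306 RPKM. Neither passed the limma test, with adjusted p = 0.669 and 0.603 in DIG1 and 0.722 and 0.734 in DIG2. The sum of 4 guard cell markers was also lower: 17.1 to 19.1 in DIG1 and 18.1 to 18.7 in DIG2, against 29.2 to 30.7 in GFP. Of these, 1 was lower in DIG1 and 2 in DIG2 by limma. The 2 phloem markers summed to 64.7 to 67.0 in DIG1 and 66.3 to 70.5 in DIG2, against 71.0 to 74.8 in GFP. Of them 0 were called, and of 6 listed root markers 1 was lower in DIG1 and 0 in DIG2. No listed marker of mesophyll, root, guard cells or phloem was at 0 in any group, and the part of these shifts in the result was not tested.

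**Figure D1:**
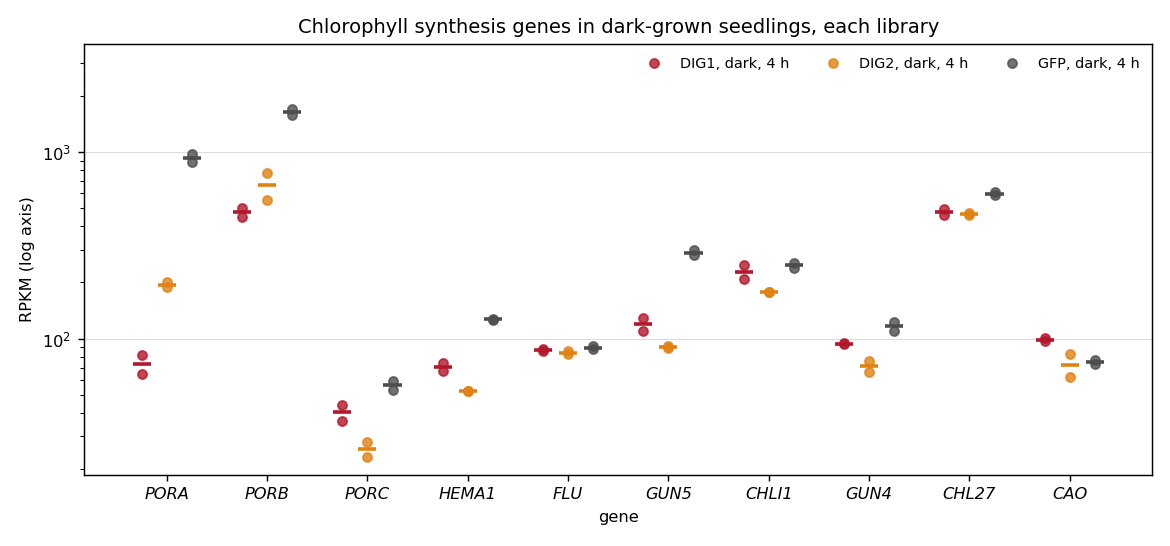
RPKM of the 10 genes (log axis) in dark-grown seedlings given dexamethasone for 4 h. Each point is 1 library and each short line the mean of the 2 libraries of DIG1 (red), DIG2 (orange) or GFP (grey). PORA ran from 64.4 to 81.5 RPKM in DIG1 and from 189 to 201 in DIG2, against 879 to 981 in GFP, while FLU lay between 82.7 and 91.3 in all 6 libraries.

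PORA (AT5G54190, chromosome 5, 21990864 to 21992814, TAIR10.1) encodes the reductase that accumulates in etiolated seedlings and whose transcript is known to fall in the light. PORA read 81.5 and 64.4 RPKM in the DIG1 libraries, 189 and 201 in the DIG2 libraries, against 879 and 981 in the GFP libraries. The 3 groups did not overlap: GFP was highest and DIG1 lowest. On the log2(RPKM + 0.5) scale PORA differed from GFP by −3.67 ± 0.14 (SE) in DIG1 and by −2.25 ± 0.14 in DIG2. In linear terms GFP was 12.7 times as high as DIG1 and 4.77 times as high as DIG2. DIG1 was lower than DIG2 by a log2 difference of −1.42 ± 0.14. PORA ranked 1657th of the 17371 genes in DIG1 and 527th in DIG2, against 65th in GFP. In whole seedlings, fewer cells of a type and less RNA per cell cannot be told apart.

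PORB (AT4G27440, chromosome 4, 13725546 to 13727440) encodes the reductase that is present both in the dark and in green leaves. At 498 and 451 RPKM in DIG1 and 551 and 774 in DIG2, against 1585 and 1699 in GFP, it was the most abundant of the 10 genes in DIG2 and GFP. Both lines lay under both GFP libraries, and the DIG1 and DIG2 libraries did not overlap either. The log2 difference from GFP was −1.79 ± 0.21 in DIG1 and −1.33 ± 0.21 in DIG2, and the DIG1 minus DIG2 difference was −0.46 ± 0.21. The DIG2 libraries lay far apart, and without the first of them the log2 difference of DIG2 from GFP was −1.08.

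PORA and PORB share 1 motif that was not found upstream of the other 8 genes. The 250 bases before the annotated start of each gene, and the first 50 bases after it, were searched on both strands for 7 motifs: the evening element AAAATATCT (bound by clock-related MYB factors such as RVE1), the G-box CACGTG, the ACGTG core, the abscisic acid response element ACGTGGC, the PBE-box CATGTG, the GLK-site CCAATC and the FHY3-site CACGCGC. The G-box and the response element both hold the core, so their matches overlap. Both POR upstream windows, shown because they belong to the genes with the largest differences in the dark, follow in the TAIR10.1 assembly from RefSeq, 5′ to 3′ on the strand of the gene, with all matches in capitals. The PORA window lies at chr5:21992815-21993064 on the minus strand and the PORB window at chr4:13725296-13725545 on the plus strand.

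PORA: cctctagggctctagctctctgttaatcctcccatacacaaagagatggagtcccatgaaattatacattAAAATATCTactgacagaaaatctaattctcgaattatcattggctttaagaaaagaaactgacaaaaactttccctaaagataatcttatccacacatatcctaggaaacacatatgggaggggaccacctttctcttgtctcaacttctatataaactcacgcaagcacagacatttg
PORB: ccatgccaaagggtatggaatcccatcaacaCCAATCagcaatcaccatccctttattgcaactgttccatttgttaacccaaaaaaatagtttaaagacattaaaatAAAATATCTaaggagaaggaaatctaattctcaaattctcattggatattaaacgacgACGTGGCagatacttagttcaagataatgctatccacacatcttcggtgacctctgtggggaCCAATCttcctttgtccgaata

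The evening element starts at position −180 in PORA and −142 in PORB, counted from the start of the gene, and stood in these 2 of the 10 genes. Of all 27443 promoters of the same length, 2.82% hold it. The longest run of letters common to both windows, aaatctaattctc, has 13 bases and begins at −162 in PORA and −123 in PORB, downstream of the element in both. PORB also holds the ACGTG core and the response element at −84 and CCAATC at −219 and −22, none of which PORA has. RVE1 itself stood at 18.5 and 19.2 RPKM in DIG1 and 18.2 and 19.8 in DIG2, against 13.7 and 14.7 in GFP. Its log2 change was 0.39 in DIG1 (limma adjusted p = 0.0450) and 0.41 in DIG2 (limma adjusted p = 0.0285), and both calls were lost without any 1 of the libraries compared, with limma adjusted p up to 0.232 and 0.169. A match in letters is a description of the window, not evidence that a factor binds there.

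PORC (AT1G03630, chromosome 1, 907523 to 909650) encodes the reductase of light-grown green tissue and was the lowest of the 10 genes in all 3 dark-grown groups. Its libraries held 36.2 and 44.2 RPKM in DIG1 and 23.1 and 28.1 in DIG2, against 53.1 and 59.3 in GFP. All 3 groups were apart, with DIG2 lowest, the reverse of the order of the lines for PORA. The log2 change against GFP was −1.12 ± 0.13 in DIG2 (limma adjusted p = 0.000581) and −0.48 ± 0.13 in DIG1 (limma adjusted p = 0.0448). The DIG1 call did not hold without either DIG1 library (limma adjusted p = 0.224 and 0.0520) or without either GFP library (limma adjusted p = 0.0927 and 0.269). Without a variance trend, with median centring, with quantile normalization and on recovered reads it was lost as well, while the direction stayed.

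Within a library, the share of each gene in the POR pool can be read without regard to library scaling, while the summed RPKM depends on it. The 3 POR genes summed to 616 and 560 RPKM in DIG1 and 763 and 1003 in DIG2, against 2518 and 2739 in GFP. PORA made up 13.2% and 11.5% of that sum in DIG1 and 24.8% and 20.0% in DIG2, against 34.9% and 35.8% in GFP. PORB took the larger share in every dark-grown library, 80.9% and 80.6% in DIG1 and 72.2% and 77.2% in DIG2, against 63.0% and 62.0% in GFP. PORC's share was 5.88% and 7.89% in DIG1 and 3.03% and 2.80% in DIG2, against 2.11% and 2.16% in GFP. The sum was lower in both lines and its PORA share smaller. Most of the sum is PORA and PORB, whose lower values in the dark were partly known when the set was drawn up. Both differences are therefore a description of the chosen genes and no separate support.

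HEMA1 (AT1G58290, chromosome 1, 21623700 to 21626402) encodes the main glutamyl-tRNA reductase of green tissue. Its libraries read 67.2 and 73.6 RPKM in DIG1 and 52.4 and 52.5 in DIG2, against 126 and 128 in GFP. HEMA1 fell in both lines without overlap, by 0.85 ± 0.09 on the log2 scale in DIG1 (limma adjusted p = 0.000578) and by 1.27 ± 0.09 in DIG2 (limma adjusted p = 6.02e-05). FLU (AT3G14110, chromosome 3, 4676118 to 4677689), whose product binds glutamyl-tRNA reductase and holds it back in the dark, stood at 87.9 and 86.1 RPKM in DIG1 and 85.5 and 82.7 in DIG2, against 87.5 and 91.3 in GFP. The log2 change of FLU was −0.04 in DIG1 (95% interval −0.24 to 0.16) and −0.09 in DIG2 (−0.29 to 0.11). Neither passed the limma test, with adjusted p = 0.854 and 0.560, and the DIG1 value turned to 0.02 with quantile normalization and to 0.06 on recovered reads. The FLU to HEMA1 ratio was 1.31 and 1.17 in the DIG1 libraries and 1.63 and 1.57 in the DIG2 libraries, against 0.694 and 0.713 in the GFP libraries. Per gene length, FLU was thus above HEMA1 in both lines and under it in GFP.

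GUN5 (AT5G13630, chromosome 5, 4387307 to 4392429) encodes the porphyrin-binding H subunit of magnesium chelatase, the enzyme that opens the magnesium branch. It measured 110 and 128 RPKM in DIG1 and 91.7 and 89.6 in DIG2, against 279 and 299 in GFP. Its fall was the largest of the 8 tested genes in both lines: −1.28 ± 0.11 on the log2 scale in DIG1 (limma adjusted p = 0.000139) and −1.67 ± 0.11 in DIG2 (limma adjusted p = 3.87e-05). CHLI1 (AT4G18480, chromosome 4, 10201672 to 10203469), which encodes the ATPase subunit of the same enzyme, stood at 247 and 209 RPKM in DIG1 and 179 and 178 in DIG2, against 253 and 240 in GFP. In DIG1 the CHLI1 libraries overlapped GFP (log2 change −0.12, limma adjusted p = 0.634). In DIG2 they lay under GFP (−0.47 ± 0.12, limma adjusted p = 0.0284), a call lost without any 1 of the 4 DIG2 and GFP libraries, with limma adjusted p from 0.0967 to 0.176. The proportion between these subunit transcripts differed from GFP in both lines: GUN5 over CHLI1 was 0.447 and 0.615 in DIG1 and 0.513 and 0.504 in DIG2, against 1.103 and 1.245 in GFP.

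GUN4 (AT3G59400, chromosome 3, 21948501 to 21949796) encodes a porphyrin-binding protein that stimulates magnesium chelatase. Its values were 93.0 and 95.0 RPKM in DIG1 and 66.1 and 75.8 in DIG2, against 110 and 122 in GFP, without overlap between any of the groups. GUN4 fell in DIG2 (−0.71 ± 0.10, limma adjusted p = 0.00229), and in DIG1 its log2 change was −0.30 ± 0.10 (limma adjusted p = 0.112). The annotation puts 946 of the bases of GUN4 inside the span of GCN2, a protein kinase gene, and whether reads were counted by strand is not given in the sources used here. GCN2 differed from GFP by a log2 change of −0.0012 in DIG1 and 0.02 in DIG2.

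CHL27 (AT3G56940, chromosome 3, 21076505 to 21078443) encodes a subunit of the cyclase that makes the fifth ring of the chlorophyll skeleton. It was the most abundant of the 10 in DIG1, at 498 and 460 RPKM, and stood at 462 and 470 in DIG2, against 587 and 609 in GFP. Both lines lay under GFP, but neither change passed the limma test: −0.32 ± 0.15 in DIG1 (adjusted p = 0.241) and −0.36 ± 0.15 in DIG2 (adjusted p = 0.136). On recovered reads the DIG2 value did pass (limma voom adjusted p = 0.0228). CAO (AT1G44446, chromosome 1, 16848308 to 16851271), whose product turns chlorophyllide a into the b form, was the one gene with a positive value in DIG1: 101 and 96.9 RPKM in DIG1 and 82.5 and 62.4 in DIG2, against 76.8 and 73.4 in GFP. The DIG1 libraries were above GFP and the DIG2 libraries spanned it. In log2 terms CAO differed from GFP by 0.39 ± 0.13 in DIG1 (limma adjusted p = 0.0907) and by −0.06 ± 0.13 in DIG2 (limma adjusted p = 0.779). The DIG1 value passed the test when either DIG2 library was left out of the shared fit (limma adjusted p = 0.0296 and 0.0309), with only the DIG1 and GFP libraries in it (0.0311) and on recovered reads (0.0181), and the DIG2 value was 0.13 without the second DIG2 library.

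CHL27 and CAO are also the 2 of the 10 genes with a G-box in the window, which 7.68% of all promoters hold, and their upstream sequences are shown for that reason. The CHL27 window lies at chr3:21076255-21076504 on the plus strand and the CAO window at chr1:16851272-16851521 on the minus strand.

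CHL27: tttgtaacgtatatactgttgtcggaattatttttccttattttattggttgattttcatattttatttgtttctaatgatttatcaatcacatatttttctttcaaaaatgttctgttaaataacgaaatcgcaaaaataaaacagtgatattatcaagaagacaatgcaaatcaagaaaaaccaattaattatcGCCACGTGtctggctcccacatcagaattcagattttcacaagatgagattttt
CAO: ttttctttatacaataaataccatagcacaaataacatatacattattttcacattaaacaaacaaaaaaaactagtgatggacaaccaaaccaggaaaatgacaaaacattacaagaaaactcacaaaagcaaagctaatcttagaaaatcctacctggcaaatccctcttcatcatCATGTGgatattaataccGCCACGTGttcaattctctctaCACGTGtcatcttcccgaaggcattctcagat

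In both genes a G-box runs from −52 to −47 and overlaps a response element on the other strand, from −54 to −48. CAO has another G-box at −32 and a PBE-box at −72. With PORB, 3 of the 10 genes hold the response element (4.08% of all promoters) and the ACGTG core (26.7%). CCAATC was found in PORB, PORC, GUN4 and GUN5, 4 of the 10 (12.3% of all promoters), but in PORC and GUN5 only after the start. The FHY3-site was in none of the 10 windows (1.34% of all promoters), and HEMA1, CHLI1 and FLU held none of the 7 motifs.

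**Figure D2:**
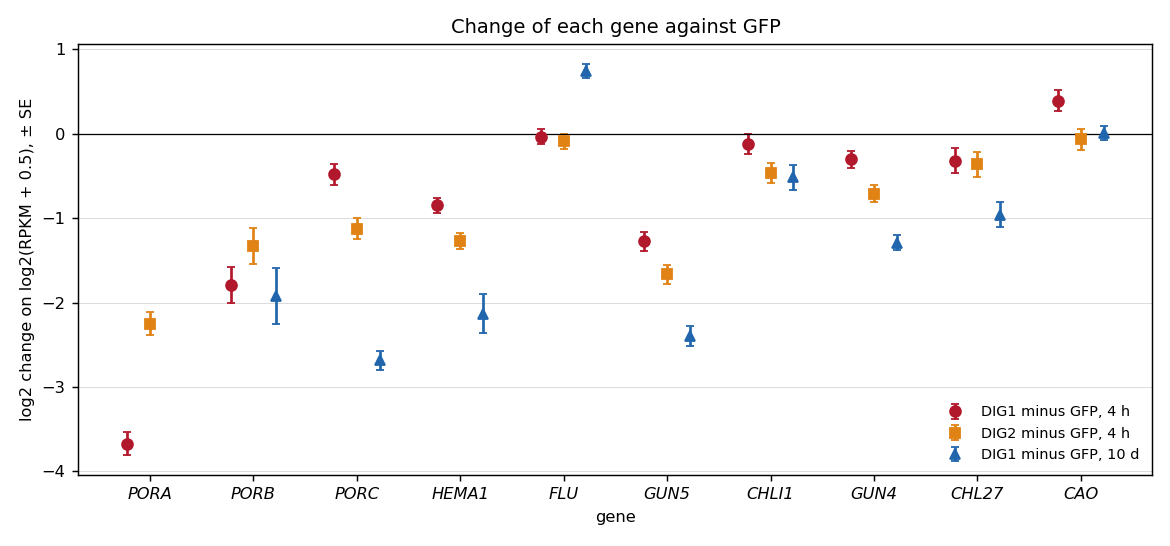
Log2 change of each gene against GFP on the log2(RPKM + 0.5) scale, with its standard error, for DIG1 at 4 h (red circles), DIG2 at 4 h (orange squares) and DIG1 at 10 d (blue triangles). Values under 0 mean lower than in GFP. PORA has no point at 10 d. GUN5 lay at −1.28, −1.67 and −2.40, CAO at 0.39, −0.06 and 0.01, and FLU was above 0 at 10 d only.

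Set directly against DIG2, DIG1 had more PORC and HEMA1 and less PORA. Of the 8 tested genes, 2 were higher in DIG1 by limma, where 0.622% of all genes were called higher. By the same test 0 were lower, where 1.74% of all genes were called lower. At an unadjusted p under 0.05, 6 of the 8 were higher and 0 lower, where 1322 and 1696 of all 17371 genes were. PORC was higher in DIG1 by 0.64 ± 0.13 on the log2 scale (limma adjusted p = 0.0324) and HEMA1 by 0.42 ± 0.09 (limma adjusted p = 0.0456). For GUN4 the log2 difference was 0.41 (limma adjusted p = 0.0766), for GUN5 0.39 (0.101), for CHLI1 0.35 (0.171) and for CAO 0.46 (0.0964). CHL27 and FLU differed by 0.04 and 0.05, with 95% intervals of −0.29 to 0.37 and −0.15 to 0.25. All of these but CHL27 had both DIG1 libraries above both DIG2 libraries, FLU included with its difference of 0.05. Groups of 2 libraries often separate so without any difference, and the share of all genes that do was not worked out.

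Calls between the lines did not hold when single libraries were left out, in fits with fewer samples. HEMA1 lost its call whichever of the 6 libraries was left out, while its log2 difference stayed between 0.35 and 0.49. Without a GFP library, which is not part of this contrast, the HEMA1 difference was still 0.42. PORC lost its call without either DIG1 library (log2 difference 0.78 and 0.50) or without the first DIG2 library (0.50). CAO gained a call without the first DIG2 library (limma adjusted p = 0.0315). The processing bore on this contrast too: limma voom on recovered reads, which changes the scaling and the model together, called 484 genes higher and 225 lower in place of 108 and 302, moved the median of all genes by 0.13 on the log2 scale and called 6 of the 8 tested genes higher in DIG1.

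In light-grown seedlings kept on dexamethasone for 10 days, PORB, PORC, HEMA1, GUN5, GUN4, CHLI1 and CHL27 were lower in DIG1 than in GFP, FLU was higher and CAO did not pass the test. Of the 9 listed genes, 7 fell and 1 rose, but 63.1% of all 17433 genes were called in this comparison, 31.2% lower and 31.9% higher, so a call by itself says little at 10 d. The median log2 change of the 9 was −1.29, beside 0.05 over all genes. At 4 h the medians of the 8 tested genes were −0.31 in DIG1 and −0.59 in DIG2, beside −0.0030 and −0.0084 over all genes. Leaf mesophyll markers moved with the set: the summed RPKM of 6 mesophyll genes was 12195 to 15283 in DIG1, against 39796 to 44594 in GFP, and 5 of the 6 fell. Of the 7 listed root markers, 4 fell and 3 did not pass the test, among them SCR (−0.0086) and MYB36 (−0.08). Their summed RPKM was 31.5 to 33.8 in DIG1, against 57.2 to 129 in GFP, where IRT1 alone stood at 3.70 and 62.6 RPKM in the GFP libraries. The 3 listed guard cell markers summed to 27.5 to 28.1 in DIG1, against 32.7 to 35.0 in GFP, with 1 called lower and 1 higher. The 2 phloem markers summed to 36.9 to 46.2 in DIG1, against 77.4 to 80.9 in GFP, with 1 called lower. The part of these shifts in the result was not tested.

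**Figure D3:**
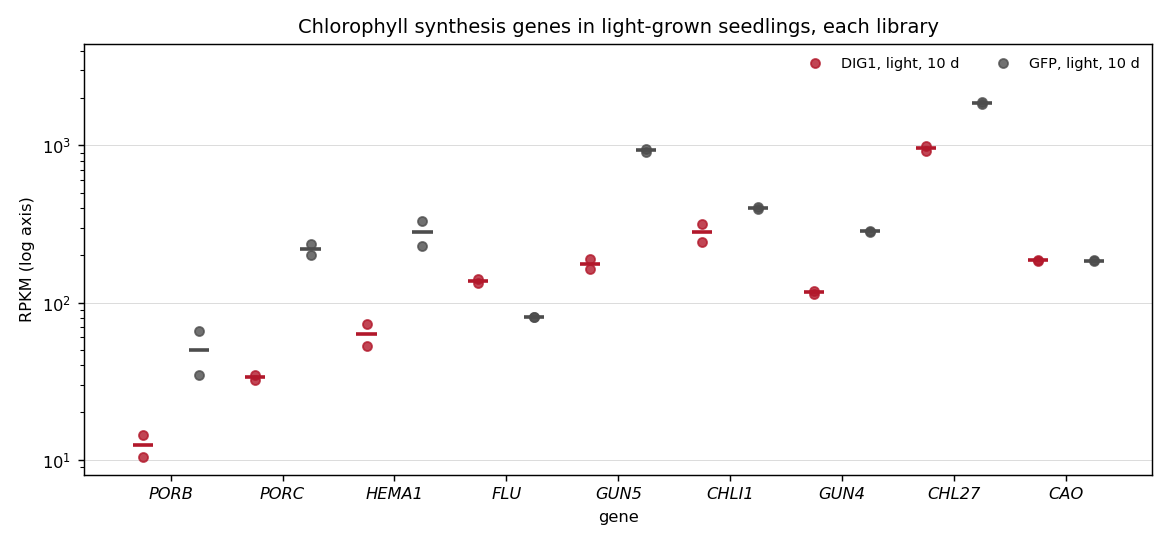
RPKM of the 9 listed genes (log axis) in light-grown seedlings kept on dexamethasone for 10 d. Each point is 1 library and each short line the mean of the 2 libraries of DIG1 (red) or GFP (grey). GUN5 stood at 163 and 189 RPKM in DIG1, against 951 and 906 in GFP, and FLU at 133 and 141 in DIG1, against 81.4 in both GFP libraries.

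PORC, the reductase gene of green tissue, stood at 34.5 and 32.2 RPKM in DIG1, against 235 and 200 in GFP. That was the largest change of the 9 genes, −2.68 ± 0.11 on the log2 scale (limma adjusted p = 0.000225), with GFP 6.52 times as high as DIG1. PORB was at 14.3 and 10.4 RPKM in DIG1, against 65.6 and 34.7 in GFP, and fell by 1.92 ± 0.33 (limma adjusted p = 0.00529), although its GFP libraries lay far apart. The annotation lets the neighbour AT4G27450 overlap PORB by 71 bases, and that gene rose by 2.63 on the log2 scale at 10 d (limma adjusted p = 0.00126), the direction opposite to PORB. PORC made up 70.6% and 75.6% of the PORB and PORC sum in DIG1, against 78.2% and 85.2% in GFP. That sum was 48.8 and 42.6 RPKM in DIG1, against 301 and 235 in GFP.

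HEMA1 stood at 53.2 and 73.0 RPKM in DIG1, against 331 and 228 in GFP, and fell by 2.13 ± 0.23 (limma adjusted p = 0.00133). GUN5 fell almost as far as PORC, to 163 and 189 RPKM in DIG1, against 951 and 906 in GFP (−2.40 ± 0.12, limma adjusted p = 0.000267). GUN4 was at 119 and 113 RPKM in DIG1, against 286 and 283 in GFP (−1.29 ± 0.09, limma adjusted p = 0.000444), while its overlapping neighbour GCN2 rose by 0.84. None of these groups overlapped, but groups of 2 libraries often separate so without any difference. How many of all genes separate so in this comparison was not worked out.

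CHLI1 moved least among the genes that fell: 243 and 316 RPKM in DIG1, against 403 and 392 in GFP (−0.52 ± 0.15, limma adjusted p = 0.0314). This call was lost without either GFP library (limma adjusted p = 0.132 and 0.113), without the first DIG1 library (0.0913) and on recovered reads (0.0558). The GUN5 to CHLI1 ratio was 0.671 and 0.599 in DIG1, against 2.36 and 2.31 in GFP. CHL27, the most abundant of the set in both groups, stood at 923 and 993 RPKM in DIG1, against 1892 and 1839 in GFP. It fell by 0.96 ± 0.15 (limma adjusted p = 0.00373), but the log2 change was −0.06 under quantile normalization (limma adjusted p = 0.598). SIP2;1, which overlaps CHL27 by 147 bases, fell by 1.53 (limma adjusted p = 0.000491).

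CAO measured 184 and 187 RPKM in DIG1, against 185 and 183 in GFP, with a log2 change of 0.01 (95% interval −0.22 to 0.23, limma adjusted p = 0.949). The groups overlapped, and CAO over CHL27 was 0.199 and 0.188 in DIG1, against 0.0980 and 0.0997 in GFP. FLU stood at 133 and 141 RPKM in DIG1, against 81.4 in each GFP library. It rose by 0.74 ± 0.09 (limma adjusted p = 0.00155) and kept its call under all 13 alternatives, with log2 changes from 0.70 to 0.94. The FLU to HEMA1 ratio was 2.50 and 1.93 in DIG1, against 0.246 and 0.357 in GFP. FLU thus stood above HEMA1 in both DIG1 libraries and under it in both GFP libraries, as in the dark.

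**Figure D4:**
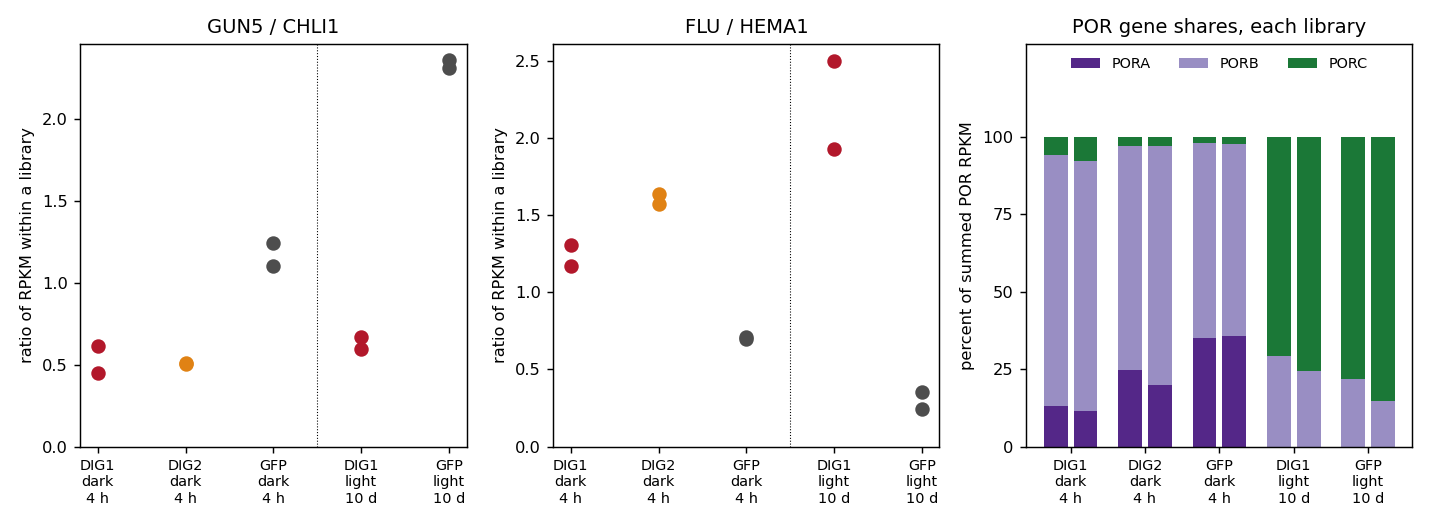
Ratios of RPKM within each library for GUN5 over CHLI1 (left) and FLU over HEMA1 (middle), and the percent of the summed POR RPKM from PORA, PORB and PORC (right). Each point or bar is 1 library, with dark-grown groups left of the dotted line. GUN5 over CHLI1 was 0.671 or less in DIG1 and DIG2 and 1.103 or more in GFP, and PORA is not listed at 10 d, so the bars there hold PORB and PORC only.

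The tables were normalized separately, so levels at 4 h and 10 d can be set side by side but not tested. Within dark-grown libraries the ratio of PORB to PORC was 13.8 and 10.2 in DIG1 and 23.8 and 27.6 in DIG2, against 29.9 and 28.7 in GFP. Within light-grown libraries it was 0.415 and 0.323 in DIG1, against 0.279 and 0.173 in GFP, so PORB led in the dark in all 3 lines and PORC led in the light in DIG1 and GFP. The order of the 10 genes in dark-grown GFP was PORB, PORA, CHL27, GUN5, CHLI1, HEMA1, GUN4, FLU, CAO and PORC, and no neighbours in that order overlapped. In dark-grown DIG1 the order was CHL27, PORB, CHLI1, GUN5, CAO, GUN4, FLU, PORA, HEMA1 and PORC, where CHL27 overlapped PORB and PORA overlapped HEMA1. For DIG2 it was PORB, CHL27, PORA, CHLI1, GUN5, FLU, CAO, GUN4, HEMA1 and PORC, where CAO and GUN4 overlapped. Light-grown DIG1 ran CHL27, CHLI1, CAO, GUN5, FLU, GUN4, HEMA1, PORC and PORB, with CAO inside the range of GUN5, against CHL27, GUN5, CHLI1, GUN4, HEMA1, PORC, CAO, FLU and PORB in light-grown GFP. There HEMA1 overlapped both of its neighbours. GUN5 ranked 557th of all 17433 genes in light-grown DIG1, against 87th in light-grown GFP.

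Over the 6 dark-grown libraries, PORA and PORB varied together (Pearson r = 0.976), as did HEMA1 and GUN5 (0.994) and PORC and GUN4 (0.988). CAO ran against PORA (−0.62) and PORB (−0.60). These values are descriptions, and the libraries share 3 groups. Among the 7798 genes with a symbol and a mean of at least 1 RPKM, those most like PORA were KNAT5 (0.997), RAP2.4 (0.995), TCL2 (0.995), XTH9 (0.995) and FLP1 (0.991). Closest to PORB were HEC1 (0.999), CDPK2 (0.996), HVA22D (0.996), NAC084 (0.994) and EPS1 (0.992), and closest to PORC were MFP1 (0.998), LPPgamma (0.991), FLP (0.991), ADT1 (0.990) and UBP1B (0.989). Pearson r takes no account of the size of a change, and the sizes varied widely among these genes. HEC1, a basic helix-loop-helix factor gene, had means of 4.87 RPKM in DIG1 and 8.83 in DIG2, against 41.7 in GFP. KNAT5, the gene most like PORA, had 19.2 in DIG1 and 21.2 in DIG2, against 25.3 in GFP. For MFP1, the gene most like PORC, the means were 39.4 in DIG1 and 31.1 in DIG2, against 45.9 in GFP.

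Of 36 other genes listed for the tetrapyrrole pathway, from 5-aminolevulinic acid synthesis to chlorophyll, haem, bilins and sirohaem, 32 had values. In DIG1 at 4 h, 1 of the 32 was called, where 8.54% of all genes were. It was BCM1, which encodes a thylakoid protein that stimulates magnesium chelatase through GUN4, and stood at 75.0 and 86.7 RPKM in DIG1, against 59.5 and 56.4 in GFP (0.47 ± 0.10, limma adjusted p = 0.0194). DIG2 at 4 h had 5 called, where 14.9% of all genes were, and all 5 were lower: UPM1 of the sirohaem branch (−0.52), LIL3:1, a light-harvesting-like protein gene (−0.48), the divinyl reductase gene DVR (−0.42), the chlorophyll synthase gene CHLG (−0.34) and HEME2, a uroporphyrinogen decarboxylase gene (−0.34). Only UPM1 among these 6 calls held without each single library; the limma adjusted p reached 0.157 for BCM1 and between 0.137 and 0.237 for the other 4. The median log2 change of the 32 was −0.06 in DIG1 and −0.18 in DIG2.

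**Figure D5:**
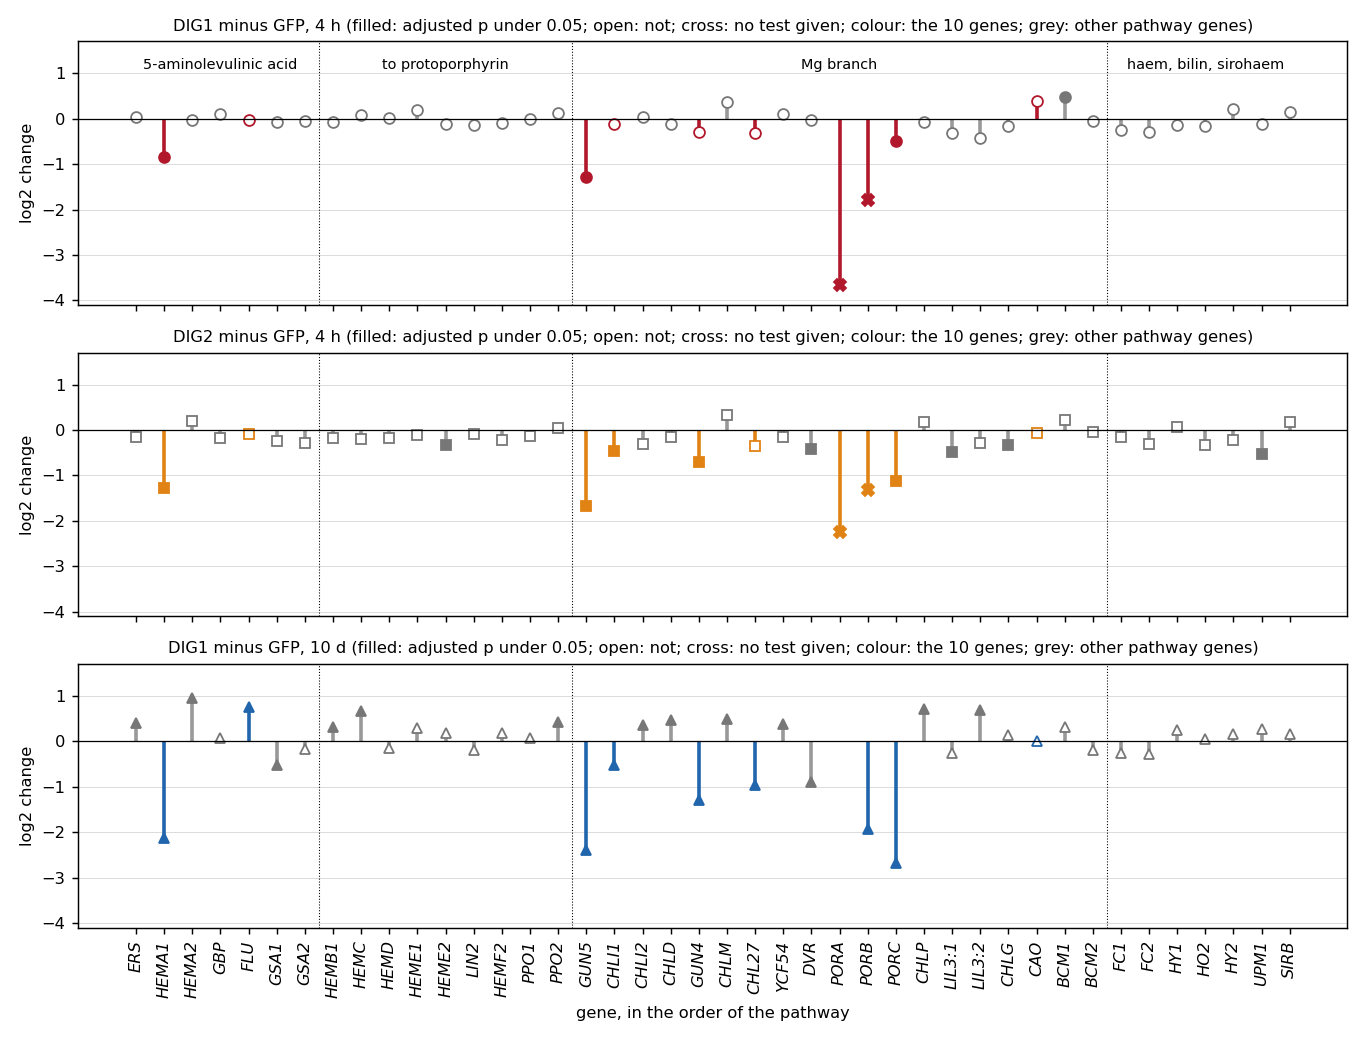
Log2 change against GFP of the 10 genes (coloured) and the other tetrapyrrole genes with values (grey), placed in the order of the pathway, for DIG1 at 4 h (top), DIG2 at 4 h (middle) and DIG1 at 10 d (bottom). Filled symbols passed the limma test at an adjusted p under 0.05, open symbols did not, and crosses are PORA and PORB at 4 h, given without a test. The genes with log2 changes under −1 were all coloured. At 4 h they included PORA and PORB, whose lower values were partly known when the set was drawn up.

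At 10 d, 11 of the 32 other pathway genes were called higher and 2 lower, with a median log2 change of 0.17, where 31.9% and 31.2% of all genes were called higher and lower. HEMA2, the second glutamyl-tRNA reductase gene, rose to 19.8 and 18.1 RPKM in DIG1, against 10.8 and 8.44 in GFP (0.95 ± 0.15, limma adjusted p = 0.00418). Among the early steps HEMC (hydroxymethylbilane synthase, 0.66), PPO2 (protoporphyrinogen oxidase, 0.44) and ERS (glutamyl-tRNA synthetase, 0.40) rose. In the chlorophyll branch CHLP (geranylgeranyl reductase, 0.70), its partner LIL3:2 (0.68), CHLM (magnesium protoporphyrin methyltransferase, 0.50) and CHLD (0.47) rose. CHLD, the third subunit gene of magnesium chelatase, stood at 171 and 170 RPKM in DIG1, against 125 and 120 in GFP (limma adjusted p = 0.00677), the direction opposite to GUN5 and CHLI1. GSA1, an aminotransferase gene of 5-aminolevulinic acid synthesis (−0.51), and DVR (−0.89) were lower, and DVR stood at 54.8 and 66.1 RPKM in DIG1, against 118 and 106 in GFP. CHLD, DVR, HEMA2, HEMC and LIL3:2 kept their calls without each single library, and the other 8 lost theirs without at least 1, with limma adjusted p up to 0.219.

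Known regulators of the pathway were read from a list of 18 genes. GNC, a GATA factor that promotes chlorophyll synthesis, was at 14.0 and 9.90 RPKM in DIG1 and 16.4 and 16.4 in DIG2, against 24.0 and 22.8 in GFP, and fell by 0.96 in DIG1 (limma adjusted p = 0.00383) and by 0.50 in DIG2 (0.0465). HY5, a light-signalling bZIP factor, rose by 0.79 in DIG1 (limma adjusted p = 0.0108) and by 0.84 in DIG2 (0.00594). GLK1, an activator of chlorophyll synthesis genes, fell by 0.42 in DIG1 (limma adjusted p = 0.0277), and its relative GLK2 rose by 0.53 in DIG2 (0.0118). CGA1 rose by 0.94 in DIG1, and EIN3 by 0.38 in DIG2. Of these calls, GNC in DIG1 and HY5 in DIG2 held without each single library, and the rest were lost without at least 1, with limma adjusted p up to 0.237 (GLK1). Against DIG2, DIG1 was lower in GLK1 (−0.59) and EIN3 (−0.49), and both calls were lost without either DIG1 library, with limma adjusted p up to 0.0796 and 0.138.

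At 10 d, 11 of the 18 regulators were called higher in DIG1 and GLK1 was called lower, where 31.9% of all genes were called higher and 31.2% lower. GLK1 stood at 53.4 and 48.9 RPKM in DIG1, against 135 and 117 in GFP (−1.29 ± 0.11, limma adjusted p = 0.000709). CGA1 rose by 1.88, HY5 by 1.09, PIF1 by 0.85 and GNC by 0.84. PIF1 is known for holding down protochlorophyllide in the dark. The GNC change at 10 d was opposite in sign to that at 4 h, and the difference was not tested.

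Of the 10 genes, 5 overlap another listed gene in the annotation, and PORA with PORB and CHLI1 with CHLI2 are close relatives. How reads that match both relatives were handled is not given in the sources used here, so their values carry that uncertainty.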

How the data were processed

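The deposited data are 1 table of dark-grown and 1 of light-grown seedlings. Per the file headers they hold RPKM values by gene and library, with the authors' own log2 fold changes and FDR, an adjusted p-value, for each line against GFP. HTSeq 0.5.4, edgeR 3.6.2 and the build TAIR10 are named per the submitters' processing notes. The aligner, the use of strand and the treatment of reads with several matches are not given in the sources used here. In the deposited tables the first cell of a row holds the locus and the first GFP value together, with a space between them, and was split there. The tables list 17371 genes at 4 h and 17433 at 10 d.

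Tests were run on log2(RPKM + 0.5) with limma 3.58.1 under R 4.3.3 (trended empirical Bayes variances, two-sided, p adjusted by Benjamini-Hochberg across each whole table, threshold 0.05). The 6 dark-grown libraries shared 1 fit and the 4 light-grown libraries another. The tables were normalized separately and no test crosses them. Changes of low genes are understated on this scale. Whole read numbers in the ratios of the RPKM values were found for 100% of genes (tolerance 0.001 read). The smallest such numbers were taken, so a factor shared by all libraries can be missed and some reads may be too low. These recovered reads gave the depths, the check that no replicate is a copy (chi-square per degree of freedom 4.89 to 10.7, Pearson r 0.985 to 0.992) and 1 alternative test, limma voom. The count tests planned were not run, since the unit is RPKM. The scripts were tested on simulated data.

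All 10 genes are named. Other pathway genes and regulators are named where called, at most 4 per list and direction by size of change, and the genes most like PORA, PORB and PORC are the 5 with the highest Pearson r. Neighbours that overlap a gene are named for their position. The members and lists were chosen with earlier results of these data known. Coordinates and promoter windows came from TAIR10.1, a later release of the named build, since the tables give none.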

Additional observations from a re-analysis of the deposited data

Results flagged for a closer look

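The groups hold 2 libraries each, so no test for a stray library could be applied. Between the lines in the dark, the effects on PORC (DIG1 minus DIG2, log2 difference 0.64), HEMA1 (0.42), UPM1 (0.39), GLK1 (−0.59) and EIN3 (−0.49) differed by limma, and all 5 calls were lost without at least 1 single library. Between the dark-grown and the light-grown experiment, 7 genes had DIG1 libraries on opposite sides of GFP without overlap, and the difference was not tested. These 7 come from the 10 genes, the 36 other pathway genes and the 18 regulators together. The share of all genes that do so was not worked out, so the count is no result about these genes. With 2 libraries per group, such a separation is frequent without any difference. LIL3:2, which encodes a light-harvesting-like protein that holds geranylgeranyl reductase, had log2 changes of −0.43 at 4 h and 0.68 at 10 d. HEMB1, which encodes 5-aminolevulinic acid dehydratase, had −0.082 and 0.32. CHLG, the chlorophyll synthase gene, had −0.16 and 0.13, and HY1, a haem oxygenase gene, −0.13 and 0.25. Among the regulators GNC had −0.96 and 0.84, PIF1 −0.22 and 0.85, and EIN3 −0.11 and 0.79. By limma, GNC passed the test at both times, LIL3:2, HEMB1, PIF1 and EIN3 passed at 10 d, and CHLG and HY1 passed at neither.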

How the results depend on the processing

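Of 33 tested changes of the 10 genes, 16 kept their direction and their side of the threshold under every alternative run, and 7 of 493 alternative values had the opposite sign, all of changes that did not pass the test: FLU in DIG1 at 4 h (0.017 with quantile normalization, 0.056 on recovered reads) and, without 1 library, CHLI1 in DIG1 at 4 h (−0.24 to 0.0016), CAO in DIG2 at 4 h (−0.26 to 0.13), CHL27 in DIG1 against DIG2 (−0.019 to 0.096) and CAO at 10 d (−0.0031 to 0.017). The cause was not tested.

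Leaving out 1 library at a time, calls ran from 2 to 4 (DIG1 against GFP, 4 h), 4 to 5 (DIG2 against GFP) and 0 to 1 (DIG1 against DIG2) among the 8 genes tested at 4 h, and from 7 to 8 among the 9 at 10 d; among other tetrapyrrole genes from 0 to 2, 1 to 5, 0 to 0 and 6 to 11; among all genes from 476 to 1577, 915 to 2649, 123 to 274 and 8089 to 9509. These fits have fewer samples. Without a variance trend, all genes called came to 1695 (DIG2 against GFP) and 149 (DIG1 against DIG2) in place of 2581 and 410, the 8 tested genes to 0 (DIG1 against DIG2) and the other tetrapyrrole genes to 0 (DIG1 against GFP), 1 (DIG2 against GFP) and 0 (DIG1 against DIG2). With medians centred, other tetrapyrrole genes came to 3 in DIG2 and 0 in DIG1 against DIG2, and 1 of the 8 tested genes in DIG1 against DIG2. Quantile normalization gave 2 in DIG1 against GFP, 2 in DIG1 against DIG2, and 4 of the 8 tested genes in DIG1 against DIG2. Fitting only the 4 libraries compared gave 271 genes in DIG1 against DIG2, 1 of the 8 tested genes and 0 other tetrapyrrole genes. The authors' deposited table gave 2 other tetrapyrrole genes in DIG1.

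An alternative chosen after seeing the data, limma voom on recovered reads, called 709 genes, 6 of the 8 tested genes and 6 other tetrapyrrole genes in DIG1 against DIG2, 2 other tetrapyrrole genes in DIG1 at 4 h and 21 at 10 d. It called 993 genes higher and 770 lower in DIG1 at 4 h (522 and 962 in the main test), and 7278 and 4633 at 10 d (5560 and 5439), where it moved the median of all genes to 0.24; quantile normalization moved it to 0.13. CCAATC was in 2 of the 10 upstream windows alone. edgeR and DESeq2, planned for counts, were not run.

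Replicate numbers share no stated source, and deviations of same-numbered libraries correlated at −0.009 to 0.163. With the replicate number as a block, calls among the tested genes were 3, 5, 2 and 8, as without it, and among all genes 1630, 2783, 478 and 10528. With 2 libraries per group, the 95% intervals of the FLU changes in the dark ran from −0.24 to 0.16 in DIG1 and from −0.29 to 0.11 in DIG2.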
